A study of Mus musculus with 12 samples.

Results

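The genes described here are the receptors, co-receptors and transcription factors at the core of the Hedgehog pathway: Gli1, Gli2, Gli3, Smo, Ptch1, Hhip, Sufu, Boc and Cdon. They were chosen by symbol, and all 9 were found among the 15672 genes of the deposited expression table. Tissue labelled MB was taken at end point from mice of both sexes, and its RNA was sequenced in bulk. SG tissue had the genotype fSMO-M2;hGFAPcre, and YSGr tissue had fYap1;fSMO-M2;hGFAPcre and carries the word rescued in its labels without an explanation. Both genotypes therefore carried SMO-M2, an activated form of Smoothened, and Cre recombinase under the human GFAP promoter, which acts in neural stem and progenitor cells, and the floxed Yap1 allele was present in YSGr alone. There were 3 libraries each of SG males (1 to 3), SG females (4 to 6), YSGr males (7 to 9) and YSGr females (10 to 12), and no age, litter or batch was given. No wild-type or Cre-negative tissue was among the samples, so levels could be compared only between tumours that all carried SMO-M2.

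Hedgehog ligands bind the membrane protein Patched1, helped by the co-receptors Boc, Cdon and Gas1, and this releases Smoothened from inhibition at the primary cilium. Active Smoothened frees the Gli transcription factors from Sufu, so that Gli2 and Gli1 activate target genes, while Gli3 acts mainly as a processed repressor in the absence of signal. Gli1, Ptch1 and Hhip are themselves targets, and Ptch1 and Hhip feed back by binding the ligand. In the cerebellum, Sonic hedgehog from Purkinje cells drives the division of granule neuron progenitors, and constant activity of the pathway in these cells gives rise to medulloblastoma.

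Each library held 8854753 to 9478650 estimated reads, recovered from the deposited log2 CPM values (read counts scaled to library size, on a log2 scale). Estimated reads of Yap1 numbered 174 to 253 in SG, while YSGr males held 33, 29 and 14 and YSGr females held 9, 12 and 7. Yap1 fell by 3.64 ± 0.20 (SE) on the log2 scale (limma, adjusted p = 1.1e-06), although the labels do not name the floxed exons. The tissue label was met by granule neuron progenitor markers, whose 15 genes summed to 5212 to 5710 CPM in SG and 4065 to 6874 CPM in YSGr, led by Zic1, Barhl1 and Neurod1. A pair of libraries stood apart in the Hedgehog genes: SG male 2 was the lowest SG library for 7 of the 9 genes, and YSGr male 8 was the lowest YSGr library for 6 of 9. This was not confined to these genes. Library weights over all genes tested, low where a library departs from its group, were 0.10 in SG male 2 and 1.97 to 3.01 in other SG libraries. The weight of YSGr male 8 was 0.28, beside 0.27 in YSGr female 11, 0.42 in YSGr female 12 and 0.84 to 3.33 in the other YSGr libraries. YSGr male 8 also had the highest sum of oligodendrocyte lineage markers, 9718 CPM against 1178 to 2990 CPM in the other YSGr libraries. Nothing in the labels says that the libraries came from separate animals, so p-values measure the spread between these libraries, which may be technical in part.

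Of the 9 genes, 5 fell in YSGr against SG with both sexes weighted equally, and 0 rose. Those that fell were Gli1, Gli3, Smo, Hhip and Boc, with log2 fold changes of -0.41 to -1.65. Among all 14147 genes tested, 11.4% passed the same threshold (limma, adjusted p under 0.05), and 5.27% passed as lower. All 9 genes passed the filter on low values. Their median log2 fold change was -0.52, beside -0.005 over all genes tested. In bulk tissue, fewer cells of a type and less RNA per cell cannot be told apart, and this holds for every level given here. Without SG male 2 and YSGr male 8 together, 7 of 9 passed, all lower, because Gli2 and Ptch1 then passed too. This pair was chosen after seeing the values of these genes, so the count is no independent test. Over all genes tested, 1940 passed in that fit and 980 of them were lower, against 1617 and 746 with all libraries.

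**Figure D1:**
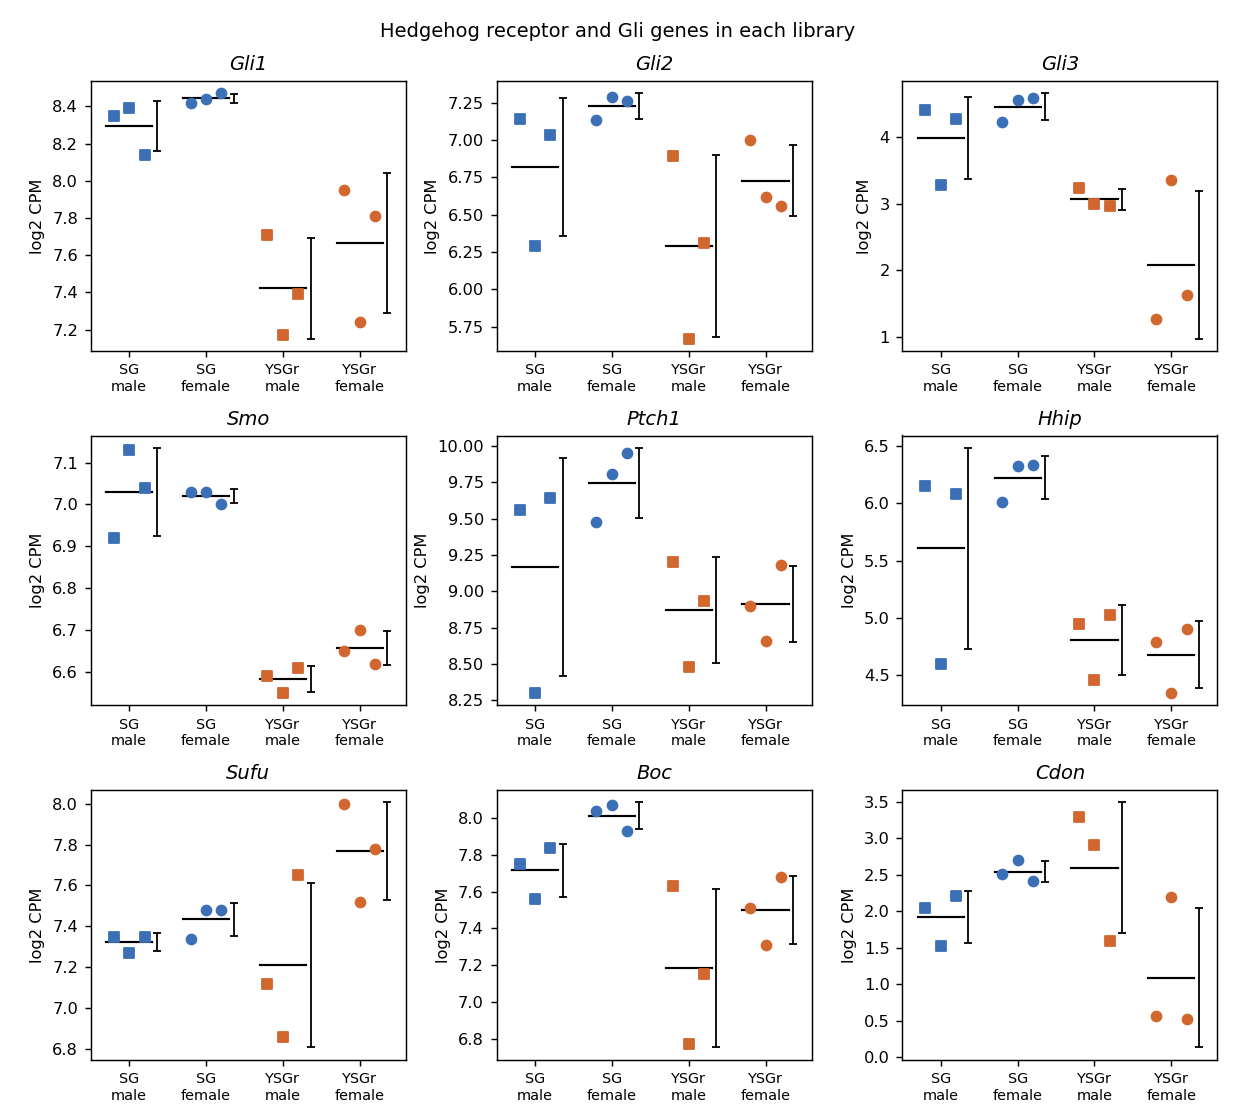
Level of each of the 9 genes in log2 CPM by group (squares, males; circles, females; blue, SG; orange, YSGr); points are libraries, horizontal lines are group means and vertical bars are ± SD (n = 3). For Gli1 and Smo every orange point lies below every blue point, while SG male 2 lay among or below the YSGr libraries for Gli2, Gli3, Ptch1 and Hhip.

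Gli1, the Gli factor that is itself switched on by the pathway, lies on chromosome 10 (mm10, chr10:127329882-127341974, minus strand). Its log2 CPM was 8.35, 8.39 and 8.14 in the SG males and 8.42, 8.44 and 8.47 in the SG females. The YSGr males gave 7.71, 7.17 and 7.39, and the YSGr females 7.95, 7.24 and 7.81. Every YSGr library was below every SG library, a separation in this direction that 2.96% of all genes tested also had (5.90% in either direction). Gli1 fell by 0.82 ± 0.13 (SE) on the log2 scale, a 1.77-fold difference (limma, adjusted p = 0.0018), and the mean level in YSGr was 57.6% of that in SG. The call held in all 23 alternative analyses, in which the change ran from -0.89 to -0.57. Reads of Gli1 could include some from the antisense gene Gm47200, which shares 265 bp (5.31%) of its annotated exons, and the use of strand in counting is not given in the sources used here.

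Gli2, the main activator that receives the signal from Smoothened, was at 7.14, 6.29 and 7.03 log2 CPM in the SG males and 7.13, 7.29 and 7.26 in the SG females. Its YSGr levels were 6.89, 5.67 and 6.31 in males and 7.00, 6.62 and 6.56 in females. The genotypes overlapped only through SG male 2, which was below 5 of the YSGr libraries. The difference of -0.51 ± 0.20 (SE; 95% interval -0.94 to -0.09) did not pass after adjustment (limma, adjusted p = 0.11). It passed without SG male 2 (-0.65, adjusted p = 0.039) and without YSGr male 7 (-0.66, adjusted p = 0.031), in the same direction.

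Gli3, which acts mainly as a repressor, showed the largest change of the 9 genes and the largest spread among the Gli factors. Its log2 CPM was 4.41, 3.28 and 4.27 in the SG males and 4.23, 4.56 and 4.59 in the SG females. The YSGr males were close together at 3.24, 2.99 and 2.96, whereas the YSGr females were at 1.27, 3.35 and 1.63. In reads, YSGr females 10 and 12 held 21 and 26 estimated reads of Gli3 against 73 to 96 in the other YSGr libraries. SG male 2 was the lowest SG library, with 86 estimated reads, and only YSGr female 11 lay above it in log2 CPM. Gli3 fell by 1.65 ± 0.31 (SE), a 3.14-fold difference (limma, adjusted p = 0.0052), and the call held in all 23 alternative analyses.

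Smo encodes the transducer whose activated form drives these tumours. It had the smallest change that passed and the tightest values. SG libraries ran from 6.92 to 7.13 log2 CPM with a median of 7.03, and YSGr libraries from 6.55 to 6.70 with a median of 6.61. The groups did not overlap, and within each genotype the CPM varied by a coefficient of variation of 4.8% in SG and 3.7% in YSGr. Smo fell by 0.41 ± 0.08 (SE), a 1.33-fold difference (limma, adjusted p = 0.0046). The locus of the SMO-M2 allele is not given in the labels, and reads from it and from the endogenous gene cannot be told apart in a sum per gene. Where libraries were instead centred on the progenitor markers, the median of all genes was 0.244 in place of -0.005 and the difference in Smo was -0.16 (adjusted p = 0.33).

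Sufu, the cytoplasmic inhibitor of Gli proteins, was the only one of the 9 genes with a higher mean in YSGr. Its log2 CPM was 7.35, 7.27 and 7.35 in the SG males and 7.34, 7.48 and 7.48 in the SG females. The YSGr males spread over 7.12, 6.86 and 7.65, and the YSGr females were at 8.00, 7.52 and 7.78, above all SG libraries. The averaged difference was 0.11 ± 0.13 (SE; 95% interval -0.17 to 0.39) and did not pass (limma, adjusted p = 0.6). Centred on the progenitor markers, it was 0.36 and passed (adjusted p = 0.035).

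Ptch1 and Hhip are the ligand-binding genes that the pathway switches on as negative feedback, and their promoters are printed because Gli proteins are known to act on both genes. The sequences are the 250 bases before and 50 bases after the gene start in RefSeq (GRCm38.p6), 5′ to 3′ along the gene. Ptch1 lies at chr13:63565686-63565985 and Hhip at chr8:80057959-80058258, both on the minus strand. The Ptch1 window lies inside the gene as annotated in GENCODE, whose outermost start is at 63573598, so it covers only 1 possible start. Capitals mark the windows closest to the Gli binding motif TGGGTGGTC or, on the other strand, GACCACCCA.
Ptch1: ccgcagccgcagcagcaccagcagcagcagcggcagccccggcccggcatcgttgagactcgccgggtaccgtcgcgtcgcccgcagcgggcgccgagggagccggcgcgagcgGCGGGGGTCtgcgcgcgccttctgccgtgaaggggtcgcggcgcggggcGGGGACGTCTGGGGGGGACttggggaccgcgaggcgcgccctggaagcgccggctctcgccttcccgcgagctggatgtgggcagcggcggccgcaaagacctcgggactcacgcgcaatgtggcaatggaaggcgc
Hhip: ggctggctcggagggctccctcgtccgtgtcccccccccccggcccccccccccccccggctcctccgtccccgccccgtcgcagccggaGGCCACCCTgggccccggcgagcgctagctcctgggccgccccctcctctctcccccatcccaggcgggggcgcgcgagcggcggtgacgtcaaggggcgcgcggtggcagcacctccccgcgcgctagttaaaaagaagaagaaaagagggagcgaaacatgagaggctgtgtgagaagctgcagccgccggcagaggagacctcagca
In the promoter of Hhip the closest window lay 160 bases before the gene start and had 2 mismatches, as good a match as 58.3% of all 32851 promoters of this length held. The windows of Ptch1 had 3 mismatches, a match that 99.4% of promoters reached, so the marked letters do not set either promoter apart. Promoters of 7 of the 9 genes were in the table (those of Gli1 and Boc were not analysed here). Of these, 0 held the motif exactly or with 1 mismatch, beside 0.253% and 6.7% of all promoters, which says only that these letters are not in this window. The windows of Cdon and Gli3, like that of Ptch1, lie inside the GENCODE genes, whose outermost starts were not searched.

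Ptch1, the Hedgehog receptor, was the most abundant of the 9 by reads, with 2846 to 9063 estimated reads per SG library. Its log2 CPM was 9.56, 8.30 and 9.64 in the SG males and 9.48, 9.81 and 9.95 in the SG females. YSGr males were at 9.20, 8.48 and 8.93 and YSGr females at 8.90, 8.66 and 9.18. The other 5 SG libraries were above all YSGr libraries, and SG male 2 was below all of them. The averaged difference was -0.57 ± 0.22 (SE; 95% interval -1.04 to -0.09; limma, adjusted p = 0.11). Without SG male 2 it was -0.78 and passed (adjusted p = 0.0066).

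Hhip, the decoy receptor that binds Hedgehog ligands at the cell surface, fell by 1.18 ± 0.24 (SE), a 2.26-fold difference (limma, adjusted p = 0.0076). Its SG levels were 6.15, 4.59 and 6.08 log2 CPM in males and 6.01, 6.33 and 6.34 in females. Those in YSGr were 4.94, 4.45 and 5.02 in males and 4.79, 4.34 and 4.90 in females. SG male 2 lay among the YSGr libraries, and the other 5 SG libraries lay above all of them, as they did for Ptch1. The call held in all 23 alternative analyses, and the mean level in YSGr was 41.7% of that in SG.

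Boc and Cdon are related co-receptors of the immunoglobulin superfamily that present ligand to Patched1. Boc was abundant, with log2 CPM of 7.75, 7.56 and 7.84 in the SG males, and 8.04, 8.07 and 7.93 in the SG females. YSGr males gave 7.63, 6.77 and 7.15, and YSGr females gave 7.51, 7.31 and 7.68. It fell by 0.52 ± 0.13 (SE), a 1.44-fold difference (limma, adjusted p = 0.023), with YSGr male 7 and YSGr female 12 inside the SG range. This call was near the threshold: leaving out SG male 3, SG female 4, SG female 5 or YSGr female 10 gave adjusted p of 0.052, 0.055, 0.062 and 0.052, and 0.15 was found with centring on the progenitor markers, all with a lower level in YSGr.

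Cdon was scarce, at 24 to 58 estimated reads per SG library. In YSGr it held 96, 69 and 27 reads in the males and 12, 42 and 11 in the females. The YSGr libraries thus lay on both sides of the SG range, with males 7 and 8 above it and females 10 and 12 below it. On the log2 scale SG ran from 1.52 to 2.71 and YSGr from 0.52 to 3.30. The averaged difference was -0.39 ± 0.34 (SE; 95% interval -1.13 to 0.35; limma, adjusted p = 0.47).

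Within females, each YSGr library was below each SG library for 8 of the 9 genes and above each for Sufu. Separation of this kind occurred for 13.9% of all genes tested as lower and 27.9% in either direction. By the test, 3 of 9 fell: Gli3 by 2.38 ± 0.44 (SE; adjusted p = 0.013), Hhip by 1.55 ± 0.34 (adjusted p = 0.027) and Gli1 by 0.77 ± 0.18 (adjusted p = 0.042; limma). Among all genes, 3.01% passed in females, and 1.87% as lower. The differences in Cdon (-1.46, adjusted p = 0.14), Ptch1 (-0.83, adjusted p = 0.21), Boc (-0.51, adjusted p = 0.19), Gli2 (-0.50, adjusted p = 0.45), Smo (-0.36, adjusted p = 0.096) and Sufu (0.33, adjusted p = 0.45) did not pass. These counts depended on single libraries: 5 passed without SG male 2, 1 on leaving out SG female 4, and 0 on leaving out SG female 5, SG female 6 or YSGr female 10. Over all genes tested, 426 passed in the full fit, 785 without SG male 2 and 94 to 166 in those other fits.

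Within males, 2 of 9 fell: Gli1 by 0.87 ± 0.18 (SE; adjusted p = 0.02) and Smo by 0.45 ± 0.11 (adjusted p = 0.029; limma). Among all genes, 7.85% passed in males, and 3.42% as lower. For Gli1, Gli3 and Smo each YSGr male was below each SG male, a separation that 18.0% of genes tested also had. The other differences were -0.93 for Gli3 (adjusted p = 0.18), -0.81 for Hhip (adjusted p = 0.13), -0.53 for Boc (adjusted p = 0.086), -0.53 for Gli2 (adjusted p = 0.22), -0.30 for Ptch1 (adjusted p = 0.53), -0.11 for Sufu (adjusted p = 0.71) and 0.67 for Cdon (adjusted p = 0.36). With centring on the progenitor markers, the values for Ptch1 and Sufu turned to 0.10 and 0.29 and 0 of 9 passed. No gene of the 9 passed without YSGr male 8, and 1 passed without SG male 3, any 1 of the SG females or YSGr male 9. Over all genes tested, 1111 passed in the full fit, 289 without YSGr male 8 and 506 to 675 in those other fits.

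**Figure D2:**
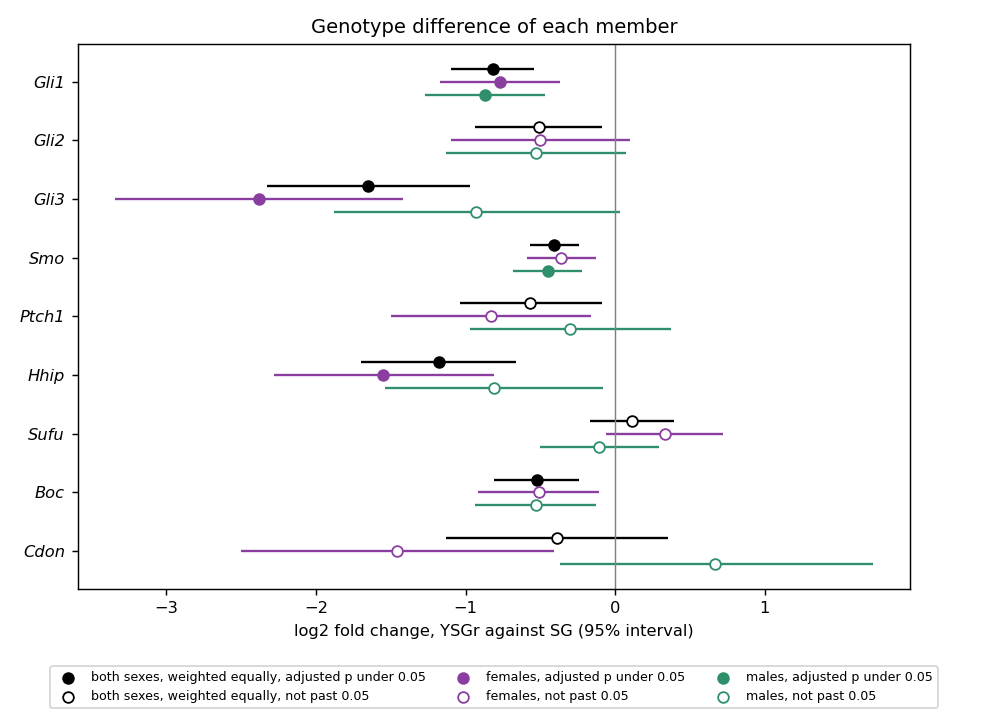
Log2 fold change of YSGr against SG with its 95% interval for each gene, with both sexes weighted equally (black), in females (purple) and in males (green); filled points passed an adjusted p of 0.05 and open points did not. The female and male estimates for Gli1 are -0.77 and -0.87 with overlapping intervals, while those for Cdon are -1.46 and 0.67.

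Whether the effect of genotype differed between females and males was tested directly, and 0 of 9 genes passed, beside 0.00707% of all genes. At an unadjusted p under 0.05 there were 2, Cdon and Gli3. The effect on Cdon was 2.13 lower in females (± 0.68 SE; unadjusted p = 0.00825, adjusted p = 0.43), and that on Gli3 was 1.45 lower (± 0.63 SE; unadjusted p = 0.0378, adjusted p = 0.43; limma). For the other 7 the differences ran from -0.74 for Hhip to 0.44 for Sufu, with adjusted p of 0.48 or more. With library weights, Gli3 (-1.81, adjusted p = 0.018) and Cdon (-2.43, adjusted p = 0.017) passed, and without YSGr female 11 Gli3 did (-2.08, adjusted p = 0.043). Calls over all genes tested rose as well, from 1 to 675 with library weights and to 115 without YSGr female 11. limma voom on the estimated reads called 0 of 9.

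Females and males of the same genotype were compared as well. In SG, 0 of 9 genes passed, beside 0.0353% of all genes, and 0 had an unadjusted p under 0.05. Females had the higher mean for 8 of the 9, by 0.11 to 0.62 on the log2 scale, with Smo at -0.01. In YSGr, 0 of 9 passed, beside 0.0778% of all genes, and 3 had an unadjusted p under 0.05: Sufu, higher in females by 0.55 ± 0.18 (SE; adjusted p = 0.17), Cdon at -1.51 ± 0.48 (adjusted p = 0.16) and Gli3 at -0.98 ± 0.44 (adjusted p = 0.27; limma). Without YSGr female 11, Cdon (-2.06, adjusted p = 0.015) and Gli3 (-1.61, adjusted p = 0.01) passed as lower in females, and with library weights 3 genes passed. Calls over all 14147 genes rose as well, from 11 to 1029 without YSGr female 11 (849 of them lower in females) and to 1819 with library weights.

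Levels of different genes were compared per length, as CPM per kb of annotated exon. In SG the order was Gli1 at 66.2 ± 5.20 (SD, n = 6), Boc at 52.7 ± 6.82, Ptch1 at 52.5 ± 16.5, Smo at 23.2 ± 1.11, Sufu at 21.6 ± 1.26, Gli2 at 19.4 ± 4.17, Hhip at 7.12 ± 2.31, Gli3 at 2.01 ± 0.55 and Cdon at 0.604 ± 0.167. The ranges of neighbours overlapped over the SG libraries down to Gli2 and were separate from Gli2 to Hhip, Hhip to Gli3 and Gli3 to Cdon. In YSGr, Gli1 stood at 38.2 ± 8.53, Boc at 37.2 ± 8.19 and Ptch1 at 34.0 ± 6.56, followed by Sufu at 24.1 ± 6.67, Smo at 17.5 ± 0.64 and Gli2 at 13.8 ± 4.02. Per exon length Sufu was thus above Smo in 5 of 6 YSGr libraries and Smo above Sufu in 4 of 6 SG libraries, but per kb of the longest coding transcript Sufu was the higher in SG as well, at 36.7 against 34.4 and in 5 of 6 libraries. The lowest places were again taken by Hhip at 2.97 ± 0.55, Gli3 at 0.688 ± 0.342 and Cdon at 0.575 ± 0.443, and the ranges of the last pair overlapped. The length chosen also mattered for Ptch1, which per kb of its longest coding transcript was first, at 96.4 in SG and 62.4 in YSGr.

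**Figure D3:**
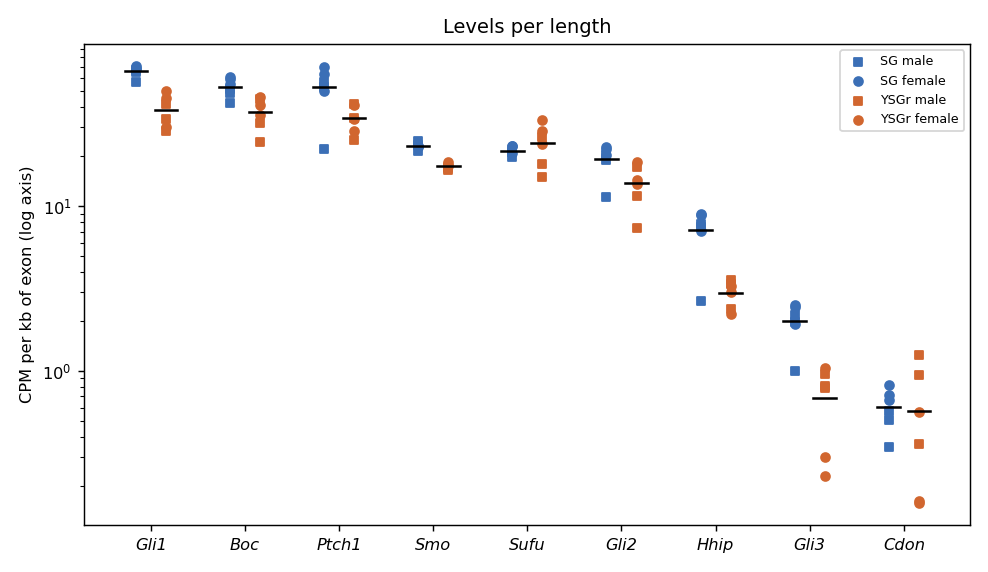
Level of each gene in CPM per kb of annotated exon on a log axis, ordered by the SG mean; points are libraries (squares, males; circles, females; blue, SG; orange, YSGr) and lines are means of 6 libraries. Gli1, Boc and Ptch1 lie highest in both genotypes, and Gli3 and Cdon lie lowest with the widest spread in YSGr.

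Ratios within a library described the balance between members. Gli1 per length was a median of 3.18 times Gli2 in SG (2.98 to 5.94 over the libraries) and 2.79 times in YSGr (2.12 to 3.88). Against Gli3, the ratio had a median of 29.1 in SG (28.4 to 67.7) and 43.0 in YSGr (29.0 to 216). The receptor Ptch1 stood at a median of 2.44 times Smo in SG (0.894 to 3.07) and 1.94 times in YSGr (1.51 to 2.43). All 3 pairs of ranges overlapped between the genotypes, and the extreme SG value of each came from SG male 2.

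Some genes elsewhere in the pathway passed the test, and how many were higher or lower depended on the scaling, the variance model and single libraries. Of 61 such genes listed, 57 were tested, 3 rose and 8 fell with both sexes weighted equally, beside 6.16% and 5.27% of all genes, and their median log2 fold change was 0.02. The 11 calls became 7, all lower, without SG female 4, without SG female 5 or without YSGr female 10, and none of the calls was higher without SG female 6 or YSGr female 11 either. Calls over all genes tested fell as well, from 1617 to 1080 without SG female 4, 919 without SG female 5 and 1030 without YSGr female 10. They were 903 without SG female 6 and 1454 without YSGr female 11. A fit without the mean-variance trend gave 0 higher and 8 lower, and centring on the progenitor markers turned the split to 11 higher and 3 lower. Among 6 tested genes for ligands and their release, the Dispatched family gene Disp2 rose by 1.12 ± 0.32 (SE, adjusted p = 0.039, limma). Its relative Disp1 was at -0.02 (adjusted p = 0.95). Hhat, the enzyme that attaches palmitate to the ligand, fell by 0.77 ± 0.19 (adjusted p = 0.023). The call for Disp2 was lost in 9 of 24 alternatives, among them the omission of SG male 2, of any SG female, or of YSGr female 10 or 11, and that for Hhat in 5, among them the omission of SG female 4, SG female 5 or YSGr female 10. The SG libraries ran from 4.99 to 5.86 log2 CPM for Disp2 and 5 of the YSGr libraries from 5.51 to 6.68, with YSGr male 8 far above at 8.51. The ligand gene Shh itself was near its floor, with 2 to 9 estimated reads in SG, while YSGr males held 12, 48 and 14 and YSGr females 0, 12 and 2 (0.78 ± 0.48 SE, adjusted p = 0.31).

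Among 7 other receptors and co-receptors, 0 rose and 1 fell, beside 6.16% and 5.27% of all genes tested. Gpc3, a glypican that binds Hedgehog ligand, fell by 0.86 ± 0.18 (SE; adjusted p = 0.0091; limma), from 3.99 to 5.06 log2 CPM over the SG libraries to 3.36 to 4.44 over the YSGr libraries. The co-receptor Gas1 (-0.43, adjusted p = 0.064), the glypican Gpc5 (0.58, adjusted p = 0.11) and the endocytic receptor Lrp2 (0.53, adjusted p = 0.33) did not pass.

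Of 16 ciliary and Smoothened-proximal regulators, 0 rose and 2 fell, a share near the 11.4% of all genes tested that passed in either direction. Kif7, the ciliary kinesin that organises Gli and Sufu at the cilium tip, fell by 0.65 ± 0.14 (SE; adjusted p = 0.0088; limma), and its SG libraries (3.65 to 3.92 log2 CPM) did not overlap its YSGr libraries (2.79 to 3.38). Evc, a ciliary partner of Smoothened, fell by 0.67 ± 0.12 (adjusted p = 0.0047), also without overlap (5.52 to 6.21 against 4.82 to 5.39), while its partner Evc2 was at -0.43 (adjusted p = 0.051) and Arrb1 at 0.51 (adjusted p = 0.083). Among 18 genes of Gli processing and turnover, 2 rose and 0 fell, also near that 11.4% of all genes. Prkacb, a catalytic subunit of the protein kinase A that primes Gli proteins for processing, rose by 0.41 ± 0.11 (adjusted p = 0.034). Btrc, the ubiquitin ligase adaptor that recognises primed Gli, rose by 0.34 ± 0.10 (adjusted p = 0.047). Both calls were near the threshold: that for Prkacb was lost in 8 of 24 alternatives, among them the omission of any SG female or of YSGr male 8 or 9 or YSGr female 10 or 11, and that for Btrc in 12, with every single library left out except SG male 2 and YSGr male 7. Prkar1a (0.25, adjusted p = 0.08) and Csnk1d (-0.21, adjusted p = 0.077) did not pass.

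Of 10 further target genes tested, 0 rose and 4 fell, beside 6.16% and 5.27% of all genes tested. Those that fell were Ccnd1, Igf2, Pdlim3 and Atoh1. The cyclin gene Ccnd1 fell by 0.60 ± 0.10 (SE; adjusted p = 0.0032; limma), with SG at 8.99 to 9.28 and YSGr at 8.14 to 8.85 log2 CPM. Igf2, a growth factor gene, fell by 1.99 ± 0.28 (adjusted p = 0.0008), and Atoh1, the transcription factor of granule neuron progenitors, by 0.59 ± 0.12 (adjusted p = 0.0076). Pdlim3 fell by 4.43 ± 0.81 (adjusted p = 0.0044), but unevenly: SG libraries held 7.05 to 7.79 log2 CPM, YSGr male 7 and YSGr female 10 held 5.59 and 6.20, and the other 4 YSGr libraries 0.82 to 2.44. Mycn (-0.16, adjusted p = 0.55) and Ccnd2 (0.06, adjusted p = 0.77), which promote progenitor division, did not pass. With centring on the progenitor markers, a list that includes Atoh1, the differences in Gpc3, Kif7, Evc, Hhat and Atoh1 no longer passed and the value for Mycn turned to 0.09, and that for Ccnd2 was -0.00 without YSGr male 9.

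The genes whose profiles over the 12 libraries were nearest to Gli1, Ptch1 and Hhip were found by the root mean square distance between log2 CPM values, each centred on the gene's own mean, among 12537 candidates. Nearest to Gli1 were Kif7 (0.15), the checkpoint kinase gene Chek2 (0.16) and the mitotic kinase gene Aurkb (0.18), where Gli1 itself had an SD of 0.49. Ptch1 was nearest to Zfp217 (0.14), the cell cycle repressor gene E2f7 (0.15) and the DNA repair gene Brca2 (0.19), with an SD of 0.53. Like Ptch1, these 3 were low in SG male 2 and YSGr male 8. Hhip was nearest to the basement membrane gene Nid1 (0.28), the transcription factor gene Pou3f4 (0.30) and Plekhh2 (0.31), with an SD of 0.78, and Ptch1 was the member closest to it, in 7th place at 0.33. The member closest to Gli1 was Boc, in 56th place at 0.23.

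**Figure D4:**
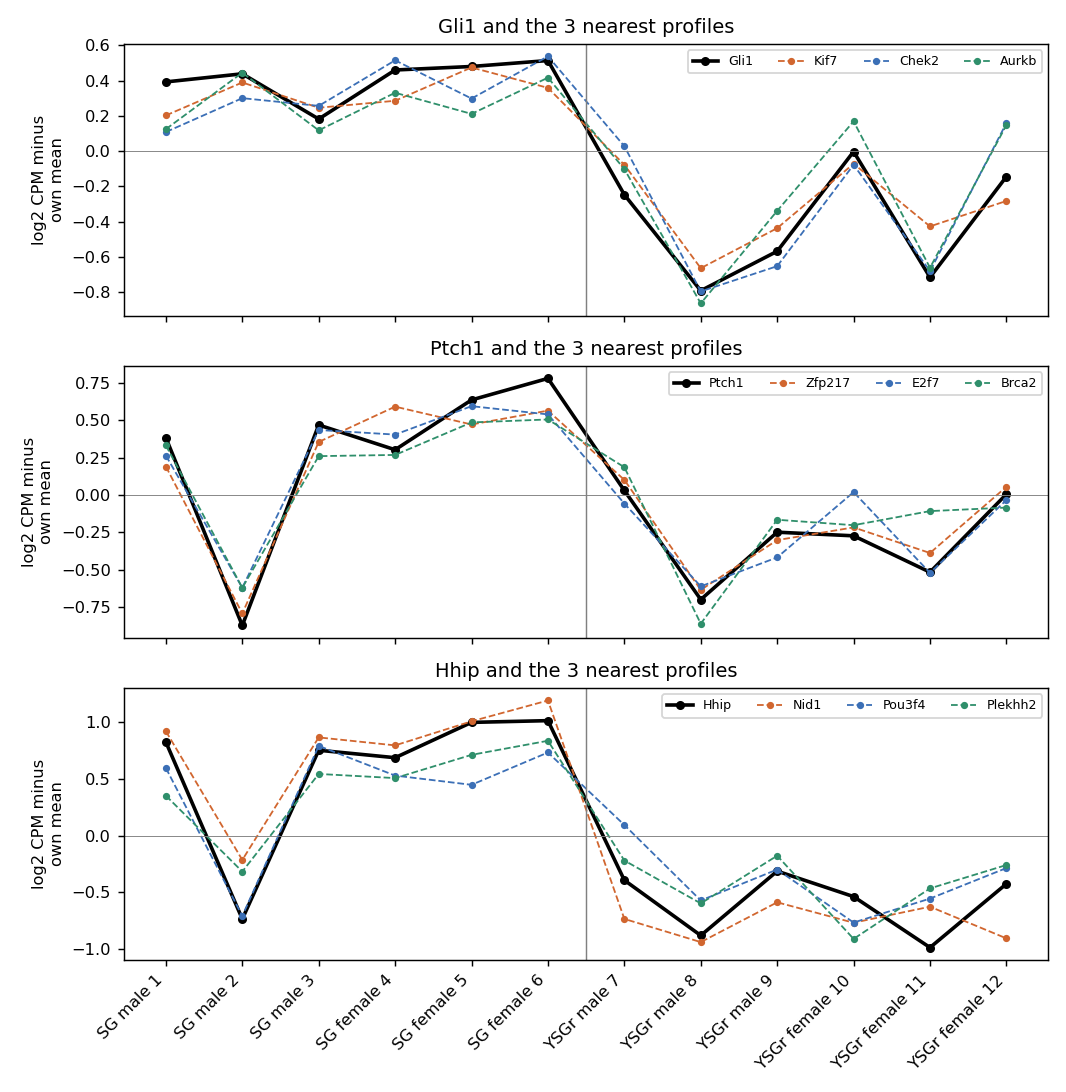
Log2 CPM minus the gene's own mean in each of the 12 libraries for Gli1, Ptch1 and Hhip (black) and the 3 genes with the nearest profile (dashed); the vertical line divides SG from YSGr. SG male 2 dips in the profiles of Ptch1 and Hhip and their neighbours and not in that of Gli1.

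Markers of other cells were set beside the levels of these genes in each library. The summed level of 10 Purkinje cell and interneuron markers was 113, 730 and 119 CPM in YSGr females, against 903, 453 and 695 CPM in YSGr males and 233 to 417 CPM in SG. That of 15 neural stem cell and astrocyte markers was 2803, 3686 and 2171 CPM in YSGr females, against 3704 to 4282 CPM in YSGr males and 3245 to 4273 CPM in SG. The low sums of both lists were thus in YSGr females 10 and 12, which were also the YSGr libraries lowest for Gli3 and Cdon. In other libraries the levels did not always run together. SG females had lower Purkinje cell and interneuron sums than SG males (233 to 281 against 323 to 417 CPM) but higher Cdon (2.42 to 2.71 against 1.52 to 2.21 log2 CPM). YSGr male 9 and SG male 1 had similar stem cell and astrocyte sums (4282 and 4273 CPM), with Gli3 at 2.96 and 4.41 log2 CPM. Of the neural stem cell and astrocyte list, 4 of 15 fell between the genotypes (Sox2, Sox9, Nes and Fabp7) and Gfap rose. Of the granule neuron progenitor list, 5 fell (Atoh1, Barhl1, Mfap4, Hes6 and Eya1) and 2 rose (Neurod1 and Reln). The summed level in the 3 YSGr females, 6350 to 6874 CPM, was above that of every SG library. The mean log2 CPM of the same list, on which the centring rests, was not. It was 7.29 to 7.31 in YSGr females and 6.72 to 7.25 in YSGr males. In SG it was 7.24 in SG male 2 and 7.38 to 7.46 in the other libraries. Infiltrating macrophage and monocyte markers summed to 420 to 816 CPM in YSGr and 226 to 249 CPM in SG. Of 9 tested macrophage markers 5 rose and 1 fell. Of 8 neutrophil markers listed, 5 were among the genes measured, and all 5 rose. Their sums were low, at 10.6 to 14.8 CPM in SG and 16.2 to 37.8 CPM in YSGr. The lowest values of Mmp9 and S100a9 were at the floor of -2.24 log2 CPM. Markers this low can pass the filter through the YSGr libraries alone, so the neutrophil count is partly set by the filter. Among 10 markers of differentiated granule neurons, 3 rose and 0 fell, and Foxp2 alone fell among 10 of Purkinje cells and interneurons. Markers that fell were 4 of 10 of endothelial cells, 3 of 12 of pericytes, fibroblasts and meninges (where Dcn rose), 3 of 10 of the oligodendrocyte lineage and 1 of 10 of microglia. Over all genes tested, 6.16% rose and 5.27% fell. A single call in a list of 10 is near the 11.4% of all genes that passed in either direction. No marker of these lists that was in the table was at 0 reads in every library, and this was not checked within each genotype. The part of these cells in the differences of the 9 genes was not tested.

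**Figure D5:**
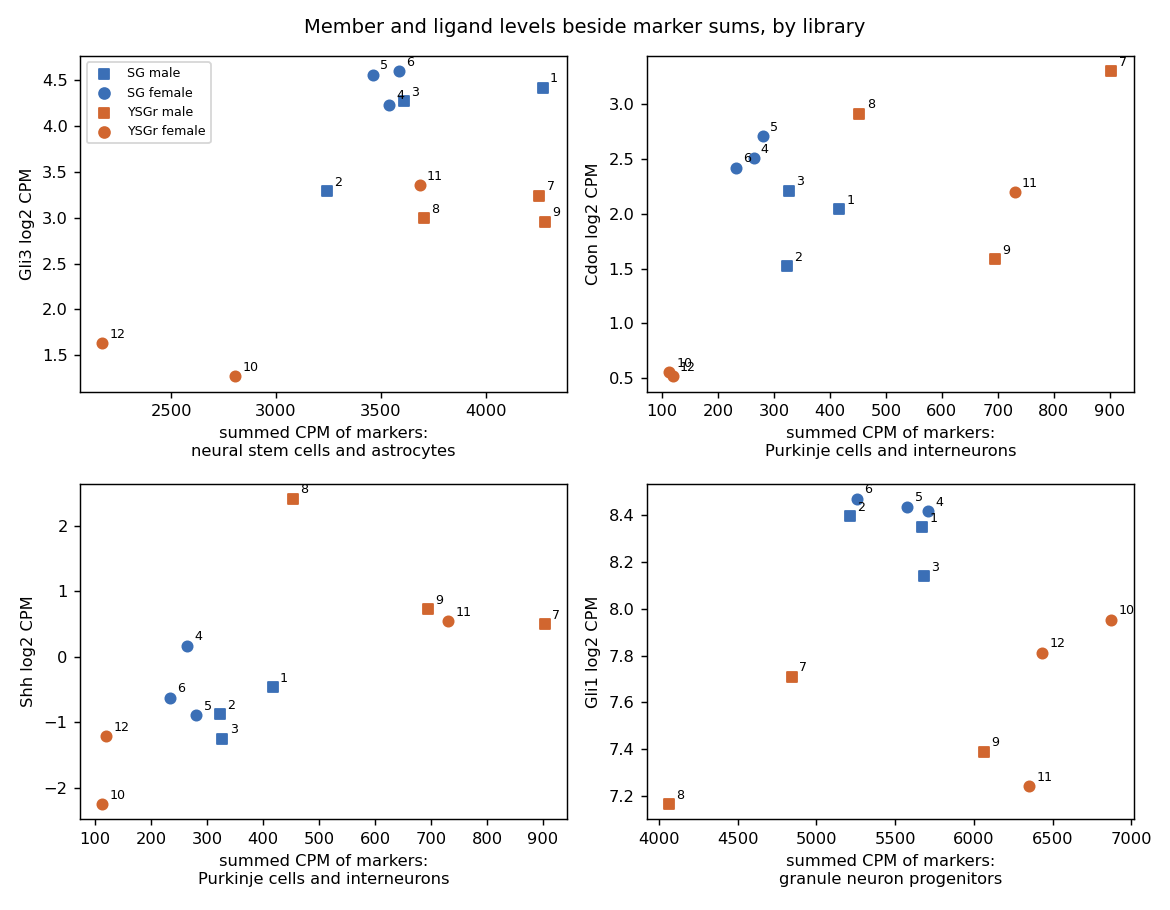
Log2 CPM of Gli3, Cdon, Shh and Gli1 against the summed CPM of a list of cell type markers in each library (numbers are library numbers; squares, males; circles, females; blue, SG; orange, YSGr). YSGr females 10 and 12 lie lowest for Gli3 and Cdon and have the lowest marker sums in those panels, while Gli1 is lower in every YSGr library at progenitor sums of 4065 to 6874 CPM.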

How the data were processed

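Bulk RNA-seq of 12 mouse libraries was analysed. The authors deposited 1 table of log2 CPM per gene. Per the submitters' processing notes, Trimmomatic 0.33, RSEM 1.2.12, Bowtie2, Picard 1.95, edgeR 3.30.3 and the build mm10 were named. Not given in the sources used here are the role of each tool, the gene annotation, the use of strand and any filter on low genes. The deposited values lay on steps, which gave estimated reads, whole to within 0.02 in 91.2 to 93.0% of a library's genes. 1 read was worth 0.1003 to 0.1110 CPM.

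Differences were tested with limma 3.58.1 (R 4.3.3) on the log2 CPM as deposited, since that unit takes no count test, with 1 coefficient per group, a mean-variance trend, two-sided tests and Benjamini-Hochberg adjustment over 14147 genes with log2 CPM above 0 in at least 3 libraries. Adjusted p-values are from this fit. Fold changes include the authors' prior count and understate changes of low genes. The fit was checked on simulated data. Lengths and locations are from GENCODE M21 (mm10). The 9 genes and all lists were chosen with earlier results of these data known. Named were all 9 genes and Yap1; up to 4 genes per other pathway list by p, with Mycn, Ccnd1, Ccnd2, Gas1, Shh and Kif7 in any case; the most abundant of each marker list; and the 3 nearest profiles among genes above a mean log2 CPM of 1. List members counted as changed are also named, as is Disp1 beside Disp2. 1 gene is not reported here and was left out of the lists and the profile search. Alternatives varied the filter, prior count, library scaling, variance model, samples in the fit, gene length and motif mismatches, and left out each library in turn. The joint omission of SG male 2 and YSGr male 8, the closest motif window and the alternatives for the other pathway genes were added after seeing the data. Marker lists also covered oligodendrocytes, microglia, neutrophils, endothelium, pericytes with meninges, and differentiated granule neurons.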

Additional observations from a re-analysis of the deposited data

Results flagged for a closer look

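In each genotype, the highest and the lowest of 6 libraries were compared with the rest for each of the 9 genes by Dixon's ratio (gap over range, critical value 0.625). Of 18 sets of libraries checked, 5 exceeded it, where chance gives about 1 in 20. In 4 of them the library was SG male 2, with log2 CPM of 6.29 for Gli2 (others 7.03 to 7.29), 3.28 for Gli3 (others 4.23 to 4.59), 8.30 for Ptch1 (others 9.48 to 9.95) and 4.59 for Hhip (others 6.01 to 6.34). In the same library Gli1 (8.39) and Smo (7.13) were within or above the other SG libraries. The fifth was Gli1 in SG male 3, at 8.14 against 8.35 to 8.47, with a ratio of 0.63 that is barely past the critical value. These genes share their libraries, so the flags are not independent of each other.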

How the results depend on the processing

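No paired analysis was possible because the library numbers are not repeated between groups. With both sexes weighted equally, the count of 5 genes past the threshold became 8 with library weights and 4 to 7 when single libraries were left out. Calls over all genes tested in that comparison went from 1617 to between 903 and 2087 when single libraries were left out. In females, 3 became 8 with library weights, 6 with the female libraries alone and 0 to 5 on leaving out a library. In males, 2 became 7 with library weights, 0 with the male libraries alone, 0 with centring on the progenitor markers and 0 to 3 on leaving out a library. Calls over all genes moved with these settings: in females from 426 to 4483 with library weights and 761 with the female libraries alone. In males they went from 1111 to 2326 with library weights and 318 with the male libraries alone. The difference between the sexes went from 0 to 2 with library weights and 0 to 1 on leaving out a library, females against males in YSGr from 0 to 3 and 0 to 2, and the other pathway genes from 11 to 25 with library weights and 7 to 15 on leaving out a library. Centring on the progenitor markers also moved the calls over all genes from 871 higher and 746 lower to 2716 and 286 (3002 in all), library weights to 4986 calls; in males, library sizes without scaling gave 696 and 354 in place of 627 and 484, and the progenitor centring 3509 and 109. The median of all genes was then 0.114 in place of 0.014 in females and 0.390 in place of -0.008 in males. Per kb of the longest transcript, Ptch1 moved from 52.5 to 96.4 in SG and from 34.0 to 62.4 in YSGr, and the log2 ratio of Ptch1 to Smo in YSGr from 0.94 to 1.24; the share of promoters with the motif moved from 0.253% to 6.7% with 1 mismatch allowed. Values that changed sign were small and did not pass. Under centring on the progenitor markers they were 0.10 for Ptch1 and 0.29 for Sufu in males, -0.20 for Gli1, -0.27 for Gli2, -0.21 for Smo and -0.28 for Boc in the difference between the sexes, -0.08 for Gli1, -0.25 for Smo, -0.28 for Ptch1 and -0.01 for Boc in YSGr females against males, and 0.04 for Csnk1d and 0.09 for Mycn. Without scaling they were -0.07 for Gli2, -0.01 for Smo and -0.08 for Boc in the difference between the sexes, -0.01 for Ptch1 in YSGr and 0.03 for Smo in SG; with median-of-ratios scaling -0.01 for Gli2 and -0.02 for Boc; with library weights -0.07 for Boc, 0.04 for Smo in SG and -0.11 for Ptch1 in YSGr. Leaving out a library turned the difference between the sexes within -0.04 to 0.31 for Gli1, -0.29 to 0.32 for Gli2 and -0.18 to 0.24 for Boc, the sex difference in YSGr within -0.15 to 0.21 for Ptch1 and -0.30 to 0.05 for Hhip, that in SG within -0.07 to 0.04 for Smo, the male effect on Sufu within -0.33 to 0.07, and Ccnd2 within -0.00 to 0.13. Of all 1767 values of single genes under alternatives, 1591 kept their direction and side of the threshold, 78 lost the call, 59 gained it and 39 changed sign; the causes were not tested. Cdon held only 11 to 96 estimated reads in YSGr, with an SD of 1.17 log2 CPM, against 24 to 58 reads and 0.42 in SG. How much of this spread was counting error was not tested.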
